A study of Mus musculus with 9 samples.

Results

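The genes described here are 9 transcription factor genes known from the formative epiblast and from early neural tissue: Otx2, Pou3f1, Sox3, Sall2, Zic5, Zic2, Sox4, Sox11 and Foxd3. They were taken by name from a count table of 38293 genes, and all 9 passed the filter on low counts in every comparison. Polyadenylated RNA was sequenced from the mouse embryonic stem cell line E14 (strain 129/Ola) in 3 culture states, with 3 libraries of each. The question was how the level of each factor differed between these states. mESC-2i, labelled Naive, grew in N2B27 with mLIF, the MEK inhibitor PD0325901 and the GSK3 inhibitor CHIR99021, and the titles of this group alone carry the letters LT, which the labels do not explain. mESC-ser, labelled Primed, grew on gelatin in DMEM with foetal bovine serum and mLIF, and no inhibitor is listed for them. EpiLC, or epiblast-like cells, were made from naive mESC on human plasma fibronectin in N2B27 with activin A, bFGF and KSR, a serum replacement, and the length of that step was not given in the sources used here. No group carried a labelled mutation or transgene, and all libraries came from the 1 cell line. The libraries are labelled as biological replicates without saying whether they were separate cultures, so the p-values measure only the spread between these libraries.

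As background, pluripotent cells leave the naive state through a formative state, in which they lose naive factors and gain the ability to respond to signals that specify germ layers and germ cells. OTX2, a homeodomain protein, and POU3F1 (also called OCT6), a POU domain protein, are factors of that state, and OTX2 is known to redirect OCT4 to enhancers used after the naive state. The other factors come from families that act again in the nervous system. SOX3 is a SOXB1 protein related to SOX2, SOX4 and SOX11 are SOXC proteins of neural progenitors and young neurons, ZIC2 and ZIC5 are zinc finger proteins of the neural plate, SALL2 is a zinc finger protein related to SALL4, and FOXD3 is a forkhead protein of the epiblast and the neural crest.

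Read totals ran from 7187576 to 16829549 counts per library. Levels are given as CPM, the read counts relative to a library size that was corrected by the trimmed mean of M values (TMM), as mean ± SD over n = 3 libraries. A gene was called when its log2 fold change was over 0.5 in size and its adjusted p from the edgeR quasi-likelihood test (Benjamini-Hochberg, over all tested genes) was under 0.05. Naive pluripotency genes, which mark the label of mESC-2i, summed to between 3712 and 3743 CPM in mESC-2i, to between 2141 and 2232 CPM in mESC-ser and to between 124 and 137 CPM in EpiLC. These are bulk samples, in which fewer cells expressing a gene and less RNA per cell cannot be told apart.

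The 9 genes fell into 3 patterns, shown in the plot of levels by library. Otx2, Pou3f1, Sox3 and Sall2 were highest in EpiLC, with mESC-ser between EpiLC and mESC-2i. Sox4, Sox11, Zic5 and Foxd3 had their highest mean in mESC-ser, with EpiLC between mESC-ser and mESC-2i. Zic2 stayed within 1.24-fold between its highest and lowest group mean. The summed level of all 9 genes was 136 ± 4.26 CPM in mESC-2i, 373 ± 27.98 CPM in mESC-ser and as much as 765 ± 31.5 CPM in EpiLC.

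**Figure D1:**
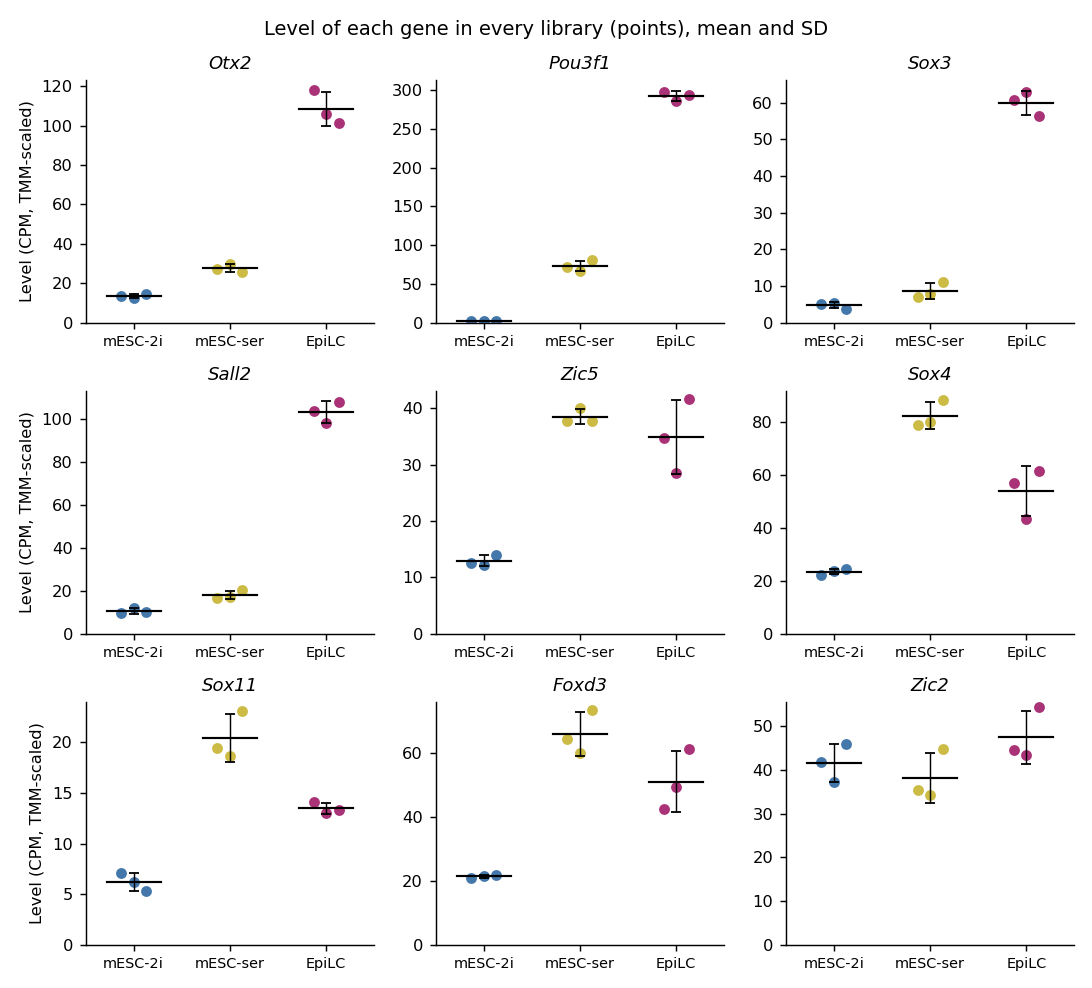
Level of each of the 9 genes in CPM (vertical axis, TMM-scaled, linear from 0, own scale per gene) in every library of mESC-2i, mESC-ser and EpiLC; points are libraries, the horizontal line is the mean of 3 and the bar the SD. In the plots of Otx2, Pou3f1, Sox3 and Sall2 the EpiLC points lie above all others, in those of Sox4, Sox11, Zic5 and Foxd3 the mESC-2i points lie below all others, and in that of Zic2 the 3 groups overlap.

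Pou3f1 (ENSMUSG00000090125; mm10 chromosome 4, 124656807 to 124660655, plus strand), a gene with a single exon, had the widest range of the 9. The mESC-2i libraries held 2.21, 2.33 and 1.72 CPM of Pou3f1, from only 18, 28 and 22 counts. The mESC-ser libraries held 71.8, 66.9 and 80.4 CPM, and the EpiLC libraries 298, 286 and 294 CPM. The 3 groups did not overlap, and each step was far larger than the spread within a group. The log2 fold change was 5.08 in mESC-ser against mESC-2i (SE 0.16, edgeR adjusted p = 1.16e-08) and 7.12 in EpiLC against mESC-2i (SE 0.13, edgeR adjusted p = 4.15e-10). The latter is a 139-fold difference, and 0.696% of tested genes changed by as much in either direction. Between EpiLC and mESC-ser the log2 fold change was 2.09 (SE 0.09, edgeR adjusted p = 1.07e-12). The gene shares 330 exonic bases with Gm2164 on the opposite strand, which has no entry in the deposited counts. The library kit does not mark strand, so the gene of origin of reads from the shared bases cannot be told.

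Otx2 (ENSMUSG00000021848; chromosome 14, 48657677 to 48673819, minus strand) held 13.3, 12.3 and 14.3 CPM in the mESC-2i libraries, 27.2, 29.8 and 25.8 CPM in mESC-ser and 118, 106 and 101 CPM in EpiLC. The groups did not overlap. Otx2 rose by 0.99 on the log2 scale in mESC-ser against mESC-2i (SE 0.13, edgeR adjusted p = 6.17e-05), by 3.00 in EpiLC against mESC-2i (SE 0.11, edgeR adjusted p = 5.62e-09) and by 2.06 in EpiLC against mESC-ser (SE 0.09, edgeR adjusted p = 3.06e-12). Its exons share 154 bases with Otx2os1 on the opposite strand and 168 bases with Gm49154 on the same strand. Neither has an entry in the deposited counts.

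Sox3 (ENSMUSG00000045179; chromosome X, 60891366 to 60893430, minus strand), also a gene with a single exon, was low in both stem cell cultures. It held 5.03, 5.42 and 3.82 CPM in the mESC-2i libraries, 6.86, 7.72 and 11.02 CPM in mESC-ser and 60.8, 62.8 and 56.4 CPM in EpiLC. Every EpiLC library lay above every mESC-ser library, and every mESC-ser library above every mESC-2i library, but the mESC-ser values varied by 25.8% of their mean (coefficient of variation), the widest spread of any of the 9 genes in any group. The difference between mESC-ser and mESC-2i was 0.80 on the log2 scale (SE 0.22, edgeR adjusted p = 0.00839). The difference between EpiLC and mESC-2i was 3.65 (SE 0.14, edgeR adjusted p = 8.62e-09), a 12.5-fold change, and that between EpiLC and mESC-ser was 2.88 (SE 0.14, edgeR adjusted p = 5.3e-12).

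Sall2 (ENSMUSG00000049532; chromosome 14, 52311172 to 52328762, minus strand) held 9.58, 12.1 and 9.98 CPM in the mESC-2i libraries, 16.7, 17.1 and 20.3 CPM in mESC-ser and 103, 97.9 and 108 CPM in EpiLC. As for Sox3, most of the difference lay between EpiLC and the 2 stem cell cultures, which did not overlap each other either. Sall2 rose by 0.71 in mESC-ser against mESC-2i (SE 0.14, edgeR adjusted p = 0.00128), by 3.26 in EpiLC against mESC-2i (SE 0.11, edgeR adjusted p = 3.91e-09) and by 2.59 in EpiLC against mESC-ser (SE 0.10, edgeR adjusted p = 3.61e-13), all on the log2 scale. Of the sum of the 3 group means, EpiLC made up 78.3% for Sall2, 81.9% for Sox3, 79.6% for Pou3f1 and 72.6% for Otx2.

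The second pattern, with the highest mean in mESC-ser and the lowest in mESC-2i, was held by 4 genes that lie on 4 chromosomes. Their promoter windows are shown as a description of this group. All 4 genes were called higher than in mESC-2i in both other states, but so were Otx2, Pou3f1, Sox3 and Sall2. Sox4, Sox11, Zic5 and Foxd3 also differed among themselves in their calls between EpiLC and mESC-ser. Windows cover 250 bases before to 50 bases after a transcript start, were taken from RefSeq annotation on GRCm38.p6, the same assembly as mm10, and are written 5′ to 3′ on the strand of the gene. They lie at chr13:28953650-28953949 for Sox4, chr12:27342669-27342968 for Sox11 and chr14:122465609-122465908 for Zic5, on the minus strand, and at chr4:99656049-99656348 for Foxd3, on the plus strand. Capitals mark matches, on either strand, to the CCAAT box (CCAAT, or ATTGG on the other strand), the GC box (GGGCGG, or CCGCCC) and the E-box CACGTG.
Sox4: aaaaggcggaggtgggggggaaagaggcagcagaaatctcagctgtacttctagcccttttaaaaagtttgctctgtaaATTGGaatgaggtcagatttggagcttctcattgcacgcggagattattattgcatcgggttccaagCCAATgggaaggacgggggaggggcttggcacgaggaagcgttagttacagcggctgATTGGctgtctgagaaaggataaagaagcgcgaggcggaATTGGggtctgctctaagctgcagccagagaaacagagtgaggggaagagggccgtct
Sox11: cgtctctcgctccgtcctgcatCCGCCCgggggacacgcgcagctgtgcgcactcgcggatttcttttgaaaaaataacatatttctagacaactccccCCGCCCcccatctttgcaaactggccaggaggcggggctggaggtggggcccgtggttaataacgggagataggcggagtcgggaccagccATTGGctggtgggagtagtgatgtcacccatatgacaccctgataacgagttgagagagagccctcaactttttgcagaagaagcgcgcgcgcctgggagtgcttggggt
Zic5: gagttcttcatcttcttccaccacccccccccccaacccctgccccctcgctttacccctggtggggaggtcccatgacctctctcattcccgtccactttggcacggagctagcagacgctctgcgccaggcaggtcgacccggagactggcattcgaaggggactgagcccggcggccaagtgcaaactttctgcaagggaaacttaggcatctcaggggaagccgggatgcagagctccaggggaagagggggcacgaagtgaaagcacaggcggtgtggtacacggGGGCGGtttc
Foxd3: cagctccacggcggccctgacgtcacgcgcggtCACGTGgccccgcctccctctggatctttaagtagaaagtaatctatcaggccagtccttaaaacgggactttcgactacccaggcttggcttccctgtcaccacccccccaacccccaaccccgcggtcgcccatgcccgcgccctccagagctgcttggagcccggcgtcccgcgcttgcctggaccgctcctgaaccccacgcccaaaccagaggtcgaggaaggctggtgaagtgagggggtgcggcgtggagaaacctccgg

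Sox4 carried 4 CCAAT boxes in this window, Sox11 carried 2 GC boxes and 1 CCAAT box, Zic5 carried 1 GC box, and Foxd3 carried 1 E-box. No motif of the 6 searched was thus present in all 4 windows. Over 32851 windows of 27025 genes, 37.4% held a CCAAT box, 35.7% a GC box and 7.15% the E-box. The TATA box (TATAAA), in 13.6% of all windows, the OTX2 core (TAATCC), in 7.06%, and the ZIC core (CCTGCTG), in 10.5%, were in none of the 4, and no matches overlapped each other. CpG dinucleotides numbered 25 in the Foxd3 window, 21 in that of Sox11, 15 in that of Zic5 and 12 in that of Sox4, against a median of 7 over all windows (quartiles 3 and 20). These matches describe the letters only, and an absent match says nothing of a factor.

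Of the genes that were highest in EpiLC, Otx2 and Sall2 had windows in the table. Otx2 had 4, from different starts, and the one at chr14:48665060-48665359 on the minus strand held the OTX2 core once, in capitals below as GGATTA, its form on the other strand. It is shown, as chosen after the search, because this motif is the one known for the OTX2 protein.
Otx2: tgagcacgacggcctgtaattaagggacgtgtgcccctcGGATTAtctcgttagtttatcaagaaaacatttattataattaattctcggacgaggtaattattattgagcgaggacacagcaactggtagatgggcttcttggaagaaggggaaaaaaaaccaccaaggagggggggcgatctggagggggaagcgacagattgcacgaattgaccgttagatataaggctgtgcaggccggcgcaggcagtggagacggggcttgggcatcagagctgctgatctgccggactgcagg

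The other Otx2 windows held 1 CCAAT box, 1 TATA box and no match respectively. Of the 2 windows of Sall2, one held 1 CCAAT box and 1 TATA box and the other no match, and they carried 1 and 10 CpG dinucleotides. Pou3f1, Sox3 and Zic2 had none, so that 6 of the 9 genes had 10 windows. The windows were not chosen by use in these cells, and which start each culture used was not measured.

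Sox4 (ENSMUSG00000076431; chromosome 13, 28948919 to 28953713, minus strand) and Sox11 (ENSMUSG00000063632; chromosome 12, 27334264 to 27342574, minus strand), single-exon genes of the same SOXC group, had the same order of groups. Sox4 held 22.3, 23.7 and 24.3 CPM in the mESC-2i libraries, 79.0, 80.2 and 88.6 CPM in mESC-ser and 57.0, 43.5 and 61.4 CPM in EpiLC. Sox11 held 7.12, 6.17 and 5.30 CPM in the mESC-2i libraries, 19.4, 18.7 and 23.1 CPM in mESC-ser and 14.1, 13.02 and 13.3 CPM in EpiLC. For both genes no library of one group overlapped another group. In mESC-ser against mESC-2i the log2 fold change was 1.76 for Sox4 (SE 0.10, edgeR adjusted p = 3.08e-07) and 1.68 for Sox11 (SE 0.16, edgeR adjusted p = 8.12e-06). In EpiLC against mESC-2i it was 1.18 for Sox4 (SE 0.13, edgeR adjusted p = 1.24e-05) and 1.11 for Sox11 (SE 0.16, edgeR adjusted p = 7.12e-05).

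EpiLC lay below mESC-ser for both SOXC genes, with a log2 fold change of -0.53 for Sox4 (SE 0.11, edgeR adjusted p = 0.000227) and of -0.52 for Sox11 (SE 0.12, edgeR adjusted p = 0.000754). These calls were narrow. Without EpiLC replicate 2 the values were -0.39 for Sox4 and -0.49 for Sox11, and without mESC-ser replicate 3 they were -0.48 and -0.42, so that neither gene passed the fold threshold in either case. With offsets for gene length and GC content Sox4 stood at -0.36 and Sox11 turned to 0.34 (edgeR adjusted p = 0.00912), neither past the threshold. In mESC-ser against mESC-2i the offsets gave 1.87 for Sox4 and 1.29 for Sox11. A ratio of counts within each library is free of scaling between libraries, but is not corrected for gene length or GC content. The same holds for the other count ratios below. The ratio of Sox11 counts to Sox4 counts was 0.266 ± 0.0506 in mESC-2i, compared with 0.246 ± 0.0138 in mESC-ser and 0.254 ± 0.0417 in EpiLC. Its log2 difference between groups was -0.09, -0.06 and 0.04 (exact two-sided permutation p = 0.7, 0.7 and 0.8, and 0.7636, 0.7636 and 0.8 adjusted over 12 ratio tests), so that no difference was detected, in a design whose smallest possible p was 0.1. Sox4 shares 2616 of its 4795 exonic bases with Gm26735 on the opposite strand, which itself held between 1 and 11 counts per library. Here too the gene of origin of reads from the shared bases cannot be told, but Gm26735, unlike the partner of Pou3f1, has an entry in the counts. The low counts of Gm26735 do not show that the Sox4 counts are complete.

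Foxd3 (ENSMUSG00000067261; chromosome 4, 99656299 to 99658622, plus strand) held 21.0, 21.6 and 21.8 CPM in mESC-2i, the tightest group of any of the 9 genes (1.85% coefficient of variation). It held 64.5, 59.99 and 73.4 CPM in mESC-ser and 42.5, 49.3 and 61.3 CPM in EpiLC. Both groups lay above mESC-2i, and they overlapped each other. The log2 fold change of Foxd3 was 1.56 in mESC-ser against mESC-2i (SE 0.11, edgeR adjusted p = 1.19e-06) and 1.23 in EpiLC against mESC-2i (SE 0.14, edgeR adjusted p = 1.19e-05). At -0.29 in EpiLC against mESC-ser (SE 0.12, edgeR adjusted p = 0.0309) it was short of the fold threshold, but it was past that threshold under total-count scaling (-0.63) and with length and GC offsets (-0.97). It shares 89 exonic bases with Gm23366 on the same strand, which held 0 counts in every library.

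Zic5 (ENSMUSG00000041703; chromosome 14, 122456795 to 122465677, minus strand) and Zic2 (ENSMUSG00000061524; chromosome 14, 122475435 to 122479852, plus strand) are neighbours that point away from each other, with starts 9757 bases apart. Zic5 was called higher than in mESC-2i in both other states, and Zic2 was called in no comparison. Zic5 held 12.5, 12.2 and 14.03 CPM in the mESC-2i libraries, 37.7, 40.0 and 37.7 CPM in mESC-ser and 34.6, 28.4 and 41.6 CPM in EpiLC. Zic2 held 41.7, 37.2 and 45.8 CPM in the mESC-2i libraries, 35.3, 34.3 and 44.8 CPM in mESC-ser and 44.6, 43.3 and 54.4 CPM in EpiLC. For Zic5 mESC-2i lay below both other groups, which overlapped each other, whereas all 3 groups of Zic2 overlapped. Zic5 rose by 1.51 in mESC-ser against mESC-2i (SE 0.12, edgeR adjusted p = 1.88e-06) and by 1.41 in EpiLC against mESC-2i (SE 0.15, edgeR adjusted p = 9.24e-06). Between EpiLC and mESC-ser its log2 fold change was -0.06 (SE 0.11, edgeR adjusted p = 0.631), which turned to 0.08 without EpiLC replicate 2 and to 0.18 with length and GC offsets, with no call in either case.

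The log2 fold change of Zic2 was -0.18 in mESC-ser against mESC-2i (SE 0.14, edgeR adjusted p = 0.262) and 0.17 in EpiLC against mESC-2i (SE 0.12, edgeR adjusted p = 0.23). In EpiLC against mESC-ser it was 0.39 (SE 0.11, edgeR adjusted p = 0.00465), short of the fold threshold, though Zic2 was called at 0.53 without mESC-ser replicate 3. Both EpiLC values changed sign with length and GC offsets, to -0.05 in each comparison, and that against mESC-2i also did so under total-count scaling, to -0.17. The count ratio of Zic5 to Zic2 was 0.300, 0.327 and 0.306 in the mESC-2i libraries, 1.07, 1.17 and 0.841 in those of mESC-ser and 0.777, 0.657 and 0.764 in EpiLC. The 3 groups of ratios did not overlap, with log2 differences of 1.71, 1.23 and -0.48 between mESC-ser and mESC-2i, EpiLC and mESC-2i, and EpiLC and mESC-ser. Each gave the smallest exact permutation p possible with 3 against 3 libraries, 0.1 (adjusted p = 0.1333, two-sided), so that this design could not place them under 0.05.

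In mESC-ser against mESC-2i, 8 of the 9 genes were called higher and none lower by edgeR (none was lower at an unadjusted p under 0.05 or by DESeq2 either), where the calls over all 15728 tested genes were 25.9% higher and 30.3% lower. The median log2 fold change of the 9 was 1.51, against -0.04 over all tested genes. The 2 groups did not overlap for 8 of the 9, as for 70.7% of all tested genes, so that a lack of overlap was common here. Otx2, Sox3 and Sall2 were the called genes with a log2 fold change under 1. In EpiLC against mESC-2i, 8 were again called higher and none lower, where 32.0% of 15378 genes were called higher and 37.8% lower, the median of the 9 was 1.41 against -0.11 over all genes, and 8 of the 9 did not overlap (81.8% of all genes). Of all genes called in EpiLC against mESC-2i, 45.9% were higher, and 33.7% were so under total-count scaling, under which the same 8 factors were still called higher. Zic2 was the 1 gene not called in either comparison, and both comparisons share the mESC-2i libraries. The 9 genes and the other gene lists were chosen with earlier results of these data known. Their counts and medians, here and below, therefore only describe them and are no independent support for a difference from all tested genes.

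EpiLC against mESC-ser divided the genes. Otx2, Pou3f1, Sox3 and Sall2 were called higher, Sox4 and Sox11 lower, and Zic2, Zic5 and Foxd3 neither, where 35.5% of 15345 genes were called higher and 37.8% lower (48.4% of the calls were higher, and 37.4% under total-count scaling). The median of the 9 was 0.39, against -0.07 over all tested genes, and 6 of the 9 did not overlap, where 85.7% of all genes did not. Read against all tested genes, the log2 fold changes of the 4 higher factors in EpiLC against mESC-2i were as large in only 0.696% to 9.4% of genes. For Sox4, Sox11, Zic5 and Foxd3 between 34.0% and 44.3% of genes changed by as much. In mESC-ser against mESC-2i the order differed. There between 31.9% and 45.5% of genes changed by as much as Otx2, Sox3 and Sall2, and 1.12% by as much as Pou3f1. For Sox4, Sox11, Zic5 and Foxd3 the share was between 13.4% and 17.2%.

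**Figure D2:**
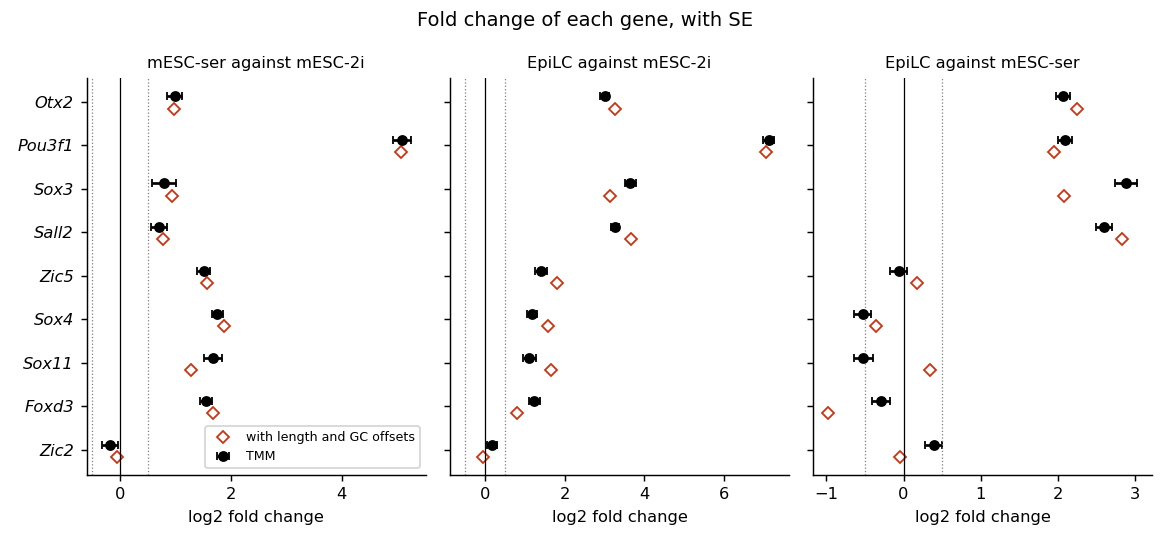
Log2 fold change of each of the 9 genes (horizontal axis) in the 3 comparisons, as TMM-scaled edgeR estimates with their SE (filled circles) and as estimates with offsets for gene length and GC content (open diamonds); dotted lines mark the fold threshold of 0.5 in size. The upper 4 genes lie right of the threshold in all 3 panels under both estimates, whereas in EpiLC against mESC-ser Sox11 lies at -0.52 by the first and at 0.34 by the second.

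The median coefficient of variation of the 9 was 10.4% in mESC-2i, also 10.3% in mESC-ser and 8.01% in EpiLC, where genes in the same range of counts had medians of 13.8%, 8.52% and 5.84%, so that the 9 varied less than these in mESC-2i and more in mESC-ser and EpiLC. In mESC-ser, replicate 3, which also had the most reads of all libraries, held the highest value of 7 of the 9 genes. In EpiLC, replicate 3 held the highest value of 5 and replicate 2 the lowest value of 6. What part these libraries had in the narrow EpiLC against mESC-ser values was not tested beyond leaving each out.

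Levels of different genes were compared as CPM per kilobase of exon, by full exonic length. For Sox4 that length of 4795 bases includes the 2616 shared with Gm26735. How reads from shared bases were counted is not stated, so the level and place of Sox4 may be too low. In mESC-2i the order ran from Zic2 (14.4 ± 1.503) and Foxd3 (9.23 ± 0.171) through Sox4 (4.89 ± 0.210), Otx2 (3.15 ± 0.238), Zic5 (2.64 ± 0.202), Sox3 (2.30 ± 0.404) and Sall2 (1.94 ± 0.248) to Sox11 (0.746 ± 0.110) and Pou3f1 (0.542 ± 0.0852). Among neighbours in that order, Zic5 and Sox3 overlapped, as did Sox3 and Sall2. In mESC-ser the highest per kilobase was Foxd3 (28.4 ± 2.93), ahead of Pou3f1 (19.0 ± 1.77) and Sox4 (17.2 ± 1.09), which overlapped each other, and the lowest was Sox11 (2.45 ± 0.285). In EpiLC Pou3f1 stood alone at 76.0 ± 1.63. Sox3 (29.1 ± 1.59), Otx2 (25.7 ± 2.06), Foxd3 (22.0 ± 4.09), Sall2 (19.0 ± 0.917) and Zic2 (16.5 ± 2.11) followed as a chain in which each overlapped the next, and Sox11 was again the lowest at 1.62 ± 0.0668. Pou3f1 thus moved from the last place in mESC-2i to the first in EpiLC.

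Within their own families the factors changed share as well as level, as in the plot of family composition. Sox3 made up 0.983% ± 0.184 of the SOXB1 family (Sox1, Sox2 and Sox3, per kilobase) in mESC-2i, only 1.62% ± 0.246 in mESC-ser and 49.0% ± 3.86 in EpiLC. Sox2, the SOXB1 member known from pluripotency, stood at 468 ± 9.61 CPM in mESC-2i, at 509 ± 50.0 CPM in mESC-ser and, lower, at 61.8 ± 6.36 CPM in EpiLC (log2 fold change -2.94 against mESC-2i, SE 0.11, edgeR adjusted p = 4.75e-09). The summed SOXB1 level was 59.4 ± 1.61 CPM per kilobase in EpiLC and 235 ± 4.03 in mESC-2i. The within-library count ratio of Sox3 to Sox2 went from 0.0102 ± 0.00194 in mESC-2i and 0.0166 ± 0.00258 in mESC-ser to 0.981 ± 0.145 in EpiLC, with no overlap between groups (exact permutation p = 0.1, the smallest possible, adjusted p = 0.1333). Sox1, the early neuroectoderm member of the family, fell from 24.1 ± 1.89 CPM in the mESC-2i libraries to 6.81 ± 1.57 CPM in those of mESC-ser and 1.23 ± 0.224 CPM in those of EpiLC.

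Pou3f1 made up 20.2% ± 4.75 of the POU class III genes (Pou3f1 to Pou3f4, per kilobase) in mESC-2i, but 98.9% ± 0.0930 in mESC-ser and 99.9% ± 0.0157 in EpiLC. In mESC-2i the main member was Pou3f2 (55.3% ± 2.47), a neural factor also called BRN2, which fell from 8.41 ± 1.11 CPM to 0.41 ± 0.076 CPM in mESC-ser (log2 fold change -4.38, SE 0.25, edgeR adjusted p = 2.44e-07). Sall2 went from 2.91% ± 0.639 of the SALL family in mESC-2i and 2.13% ± 0.0697 in mESC-ser to 24.9% ± 0.582 in EpiLC. Sall4, a factor needed for pluripotency, was the largest SALL gene per kilobase in every state, with log2 fold changes of 1.36 in mESC-ser against mESC-2i (called higher) and 0.02 in EpiLC against mESC-2i (SE 0.09, edgeR adjusted p = 0.82). The count ratio of Sall2 to Sall4 was 0.0568 ± 0.0103, 0.0359 ± 0.00147 and 0.536 ± 0.0326 in mESC-2i, mESC-ser and EpiLC, again without overlap (exact permutation p = 0.1, adjusted p = 0.1333). In mESC-ser Sall2 thus rose in level while its ratio to Sall4 was lower than in mESC-2i.

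Zic1, a relative of Zic2 and Zic5 and a factor of the dorsal neural tube, fell from 15.7 ± 2.08 CPM in the mESC-2i libraries to 0.624 ± 0.158 CPM in mESC-ser. In the SOXC group Sox12 was the largest gene per kilobase in every state (67.1%, 48.9% and 73.6% on average), and it rose in EpiLC against mESC-ser by 1.01 on the log2 scale (SE 0.09, edgeR adjusted p = 1.18e-08), opposite in sign to the TMM-scaled values of Sox4 and Sox11. The SOXC shares rest on the full exonic length of Sox4, with the limit given above for its shared bases, so the place of Sox12 is uncertain. The 17 listed relatives of the 9 genes came from the OTX, POU class III, ZIC, SOX, SALL and FOXD families. In mESC-ser against mESC-2i 5 were called higher and 5 lower of 11 tested. The counts were 1 and 7 of 11 in EpiLC against mESC-2i, and 1 and 6 of 7 in EpiLC against mESC-ser. Of all tested genes 25.9%, 32.0% and 35.5% were called higher in that order, and 30.3%, 37.8% and 37.8% lower.

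**Figure D3:**
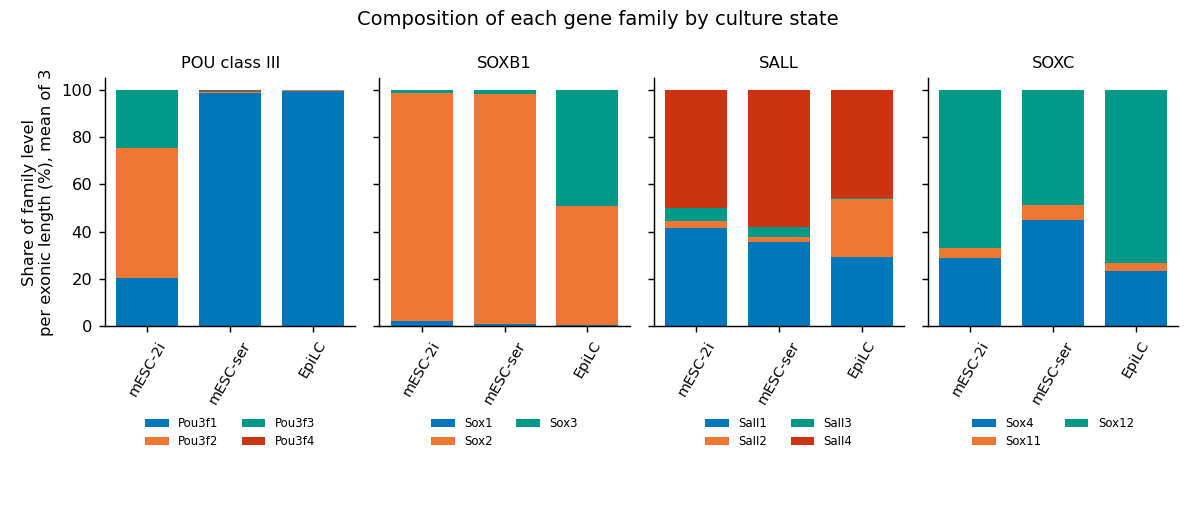
Share of each family's summed CPM per kilobase (vertical axis, percent, mean of 3 libraries) held by each gene, as stacked bars for mESC-2i, mESC-ser and EpiLC in the POU class III, SOXB1, SALL and SOXC families. Pou3f1 fills nearly the whole bar in mESC-ser and EpiLC, Sox3 fills 49.0% in EpiLC against 0.983% in mESC-2i, and Sall2 fills 24.9% in EpiLC against 2.91%.

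Most of the other listed genes of the formative state were also higher in both mESC-ser and EpiLC than in mESC-2i. Of 12 genes, 8 were called higher and none lower in mESC-ser against mESC-2i (median log2 fold change 2.39). The counts were 8 higher and 1 lower in EpiLC against mESC-2i (2.58), and 6 higher and 1 lower in EpiLC against mESC-ser (0.44). Of all tested genes 25.9%, 32.0% and 35.5% were called higher in these comparisons, and 30.3%, 37.8% and 37.8% lower. Fgf5, a ligand gene that marks the formative epiblast, held between 0 and 2 counts in the mESC-2i libraries, 3.90 ± 0.700 CPM in mESC-ser and as much as 122 ± 6.01 CPM in EpiLC. The genes of the DNA methyltransferase Dnmt3a and of the chromatin factor Utf1 rose by 5.44 (SE 0.12) and 5.00 (SE 0.13) in EpiLC against mESC-2i. Cdh2, which encodes N-cadherin, was the 1 gene called lower, by -2.48 (SE 0.20).

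Listed early neural genes that passed the filter were mostly lower in EpiLC. Of 19 genes, 14 were tested in EpiLC against mESC-2i. Of these, 13 were called lower (4 with a filter of at least 10 counts in every library) and none higher (median -2.92). In EpiLC against mESC-ser all 7 tested were called lower (median -2.40). Of all tested genes 37.8% were called lower in each of these comparisons. Genes that pass a count filter only through the group where they are high had to differ, so these counts cover the tested genes alone. Their summed level was between 277 and 309 CPM in mESC-2i, between 298 and 325 CPM in mESC-ser and between 84.3 and 86.6 CPM in EpiLC. Sox1 fell by 4.31 on the log2 scale in EpiLC against mESC-2i (SE 0.18, edgeR adjusted p = 1.38e-08), Ncam1, a neural adhesion molecule, by 2.76 (SE 0.19), and Tubb3, a neuronal tubulin, by 1.95 (SE 0.10). In mESC-ser against mESC-2i 3 of 15 tested were called higher and 9 lower (median -1.87), where 25.9% and 30.3% of all tested genes were. But with a filter of at least 10 counts in every library 3 were called higher and only 1 lower. The range of the summed level overlapped between these 2 states. Those higher were Pax6, a neural and eye factor that went from 1.69 ± 0.347 to 25.2 ± 1.02 CPM (log2 fold change 3.83, SE 0.18), Gbx2 (0.87, SE 0.11) and Nes (0.75, SE 0.12). Pax6 was at 0.464 ± 0.230 CPM in EpiLC, where Pou3f1, Otx2, Sox3 and Sall2 had their highest levels.

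**Figure D4:**
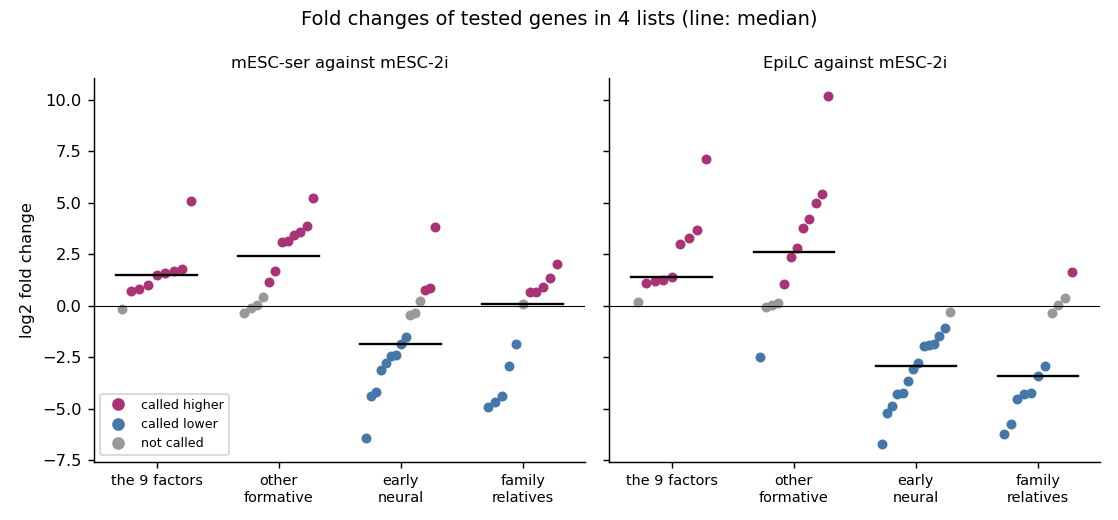
Log2 fold changes (vertical axis) of the tested genes of 4 lists, namely the 9 factors, the other formative genes, the early neural genes and the family relatives, with mESC-ser and EpiLC each set against mESC-2i; points are genes, coloured by call, and the line is the list's median. In EpiLC against mESC-2i the 9 factors have a median of 1.41 and the other formative genes one of 2.58, and the early neural genes one of -2.92.

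Markers of other cell types were read because several of the 9 genes are also used outside the epiblast. Primitive endoderm markers summed to between 21.0 and 24.4 CPM in mESC-2i, between 33.6 and 34.8 CPM in mESC-ser and between 7.92 and 10.96 CPM in EpiLC, where Sox7 and Pdgfra were at or under 3 counts in each library. Of 8 listed, 4 of 6 tested were called higher and 2 lower in mESC-ser against mESC-2i. The counts were none and 3 of 4 tested in EpiLC against mESC-2i, and 1 and 5 of 6 in EpiLC against mESC-ser. Of all tested genes 25.9% and 30.3%, 32.0% and 37.8%, and 35.5% and 37.8% were called higher and lower in these comparisons. The sum of the primitive endoderm markers was thus highest in mESC-ser, where Dab2 alone held 18.6 CPM. The fibroblast sum given below was also highest in mESC-ser. Sox4, Sox11, Zic5 and Foxd3 had their highest means there too, though Zic5 and Foxd3 were not called different from EpiLC. The part of these markers in the levels of the 4 genes was not tested. Neural crest genes, with which Foxd3 is also associated, summed to between 45.6 and 50.3 CPM in mESC-2i, between 21.9 and 23.9 CPM in mESC-ser and between 12.5 and 13.7 CPM in EpiLC. Of 10 listed, 8, 7 and 4 were tested in the same order of comparisons. Among those tested 1 was called higher and 5 lower, none and 4, and 1 and 2. Pax3 and Tfap2b were at 0 counts in EpiLC. Primitive streak genes (8 listed) summed to between 107 and 127 CPM in mESC-2i and between 19.1 and 24.3 CPM in the other states. Of 6 tested in each comparison, 1 was called higher and 3 lower, 2 and 3, and 2 and 2.

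Trophoblast markers (6 genes) summed to between 13.99 and 25.9 CPM in all libraries. Of 5, 4 and 5 tested in the order above, 2 were called higher and 1 lower, 1 and 2, and 2 and 3. Fibroblast markers (6 genes) summed to between 52.0 and 56.7 CPM in mESC-2i and between 62.9 and 82.7 CPM in mESC-ser. In EpiLC they summed to between 42.2 and 46.4 CPM. Of 5, 6 and 6 tested, 1 was called higher and 2 lower, 2 and 4, and 2 and 4. Thy1, a fibroblast marker, rose by 3.25 in EpiLC against mESC-2i (SE 0.15, edgeR adjusted p = 2.83e-08), while Col1a1, the main fibroblast collagen, was at 22.5 CPM in mESC-2i, at 49.6 CPM in mESC-ser and, called lower, at 1.47 CPM in EpiLC. Naive genes, of which 12 were listed, had 3 called higher and 8 lower in mESC-ser against mESC-2i, none and 11 in EpiLC against mESC-2i, and none and 12 in EpiLC against mESC-ser. Of the 2 general pluripotency genes, Sox2 was called lower in both EpiLC comparisons, and Pou5f1 stood at 873 ± 206 CPM in mESC-2i, 790 ± 69.5 CPM in mESC-ser and at 1007 ± 21.6 CPM in EpiLC, with no call.

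The genes most like each factor were found by the distance between log2 CPM values, each gene centred on its own mean over the 9 libraries, among 10354 genes. This is a description of the shape and size of change over 3 states, and the libraries are shared. The distance was not scaled by a gene's range, so it tends to be larger for genes that varied widely and smaller for those that hardly varied. Nearest to Otx2 were Rasgrp2, at a distance of 0.369, and Rsph1 (0.405). Rasgrp2, an activator of Rap GTPases, stood at 23.2 ± 1.46, 45.8 ± 3.03 and 195 ± 6.28 CPM in mESC-2i, mESC-ser and EpiLC. Nearest to Sall2 were Flywch2 (0.292), Isyna1 (0.392), the enzyme that makes inositol phosphate from glucose 6-phosphate, and Thy1 (0.431). Sall2 was itself the gene ranked 2 for Sox3 (0.662), between Parp10 (0.637) and Flywch2 (0.663). Pou3f1, with the widest range of the 9, had larger distances to its nearest genes, which were Myl9, a myosin light chain gene (1.39), Mmp25 (1.47) and Plac8 (1.67).

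In the second pattern some names came up more than once. Lgr4, a receptor for R-spondins, was nearest to Sox4 (0.290) and ranked 3 for Sox11 (0.416), and Ajuba was ranked 2 for both (0.401 and 0.375). B3gnt7 was nearest to Sox11 (0.365) and ranked 3 for Foxd3 (0.366), after Slc43a2 (0.357) and Fgd5 (0.365), and the next gene for Sox4 after Ajuba was Tpm1 (0.429). For Zic5 the nearest were Mkrn1-ps1, a processed pseudogene whose reads may be shared with its parent gene (0.377), Spry1, a feedback inhibitor of FGF signalling (0.408), and Ptpn13 (0.465). For Zic2, which hardly varied, they were Zrsr2 (0.235), Dhdds (0.277) and Ppp1r12c (0.319). Among the 9 genes themselves the nearest to Sox4 was Sox11 and the reverse (0.534), that to Zic5 was Foxd3 and the reverse (0.543), and that to Sall2 was Sox3 and the reverse (0.662).

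A last shared feature is gene structure, which the choice by name did not use. Pou3f1, Sox3, Sox4, Sox11 and Foxd3, 5 of the 9 genes (55.6%), have a single exon, against 2.54% of the 13583 protein-coding genes tested in any comparison and 5.72% of 21250 in the table. The single-exon genes were found in both patterns. Pou3f1 and Sox3 were highest in EpiLC, and Sox4, Sox11 and Foxd3 had their highest mean in mESC-ser.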

How the data were processed

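Polyadenylated RNA from 9 libraries was sequenced as single-end reads with a kit that does not mark strand. According to the submitters' processing notes the tools were FastQC 0.11.0, Trim Galore 0.6.6, HISAT2 2.2.1 and Subread 2.0.1 with the mm10 build; the strand setting and the treatment of ambiguous reads are not given in the sources used here. The authors deposited raw counts per Ensembl gene, not normalized, for 38293 genes, of which 36429 identifiers (95.1%) were matched to GENCODE annotation of GRCm38 for symbols, exonic lengths and GC content. The 9 genes and the gene lists were chosen with earlier results of these data known. All 9 genes are named; genes of the other lists are those called that averaged 100 counts or more where they were higher, up to the 3 with the largest change in each direction, plus relatives and marker genes that help to describe a factor (Pax6 in EpiLC, Sox1, Sox2, Sall4, Zic1, Pou3f2, Pou5f1, Col1a1).

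Every comparison used the 6 libraries of its 2 groups in edgeR 4.0.16 (R 4.3.3, limma 3.58.1; filterByExpr, TMM, glmQLFit and glmQLFTest), a fit that was tested on simulated data. Levels are TMM-scaled CPM computed here from the deposited counts. Alternatives were DESeq2 1.42.0 and RLE or total-count scaling, other filters (none, or at least 10 counts in every library), other thresholds, a fit of all 9 libraries, offsets from splines (5 degrees of freedom) of exonic length and GC content, the replicate number as a block, and each library left out. Deviations of same-numbered libraries correlated at 0.129 to 0.345 in mESC-ser and mESC-2i, and those of differently numbered ones at -0.278 to 0.146, so that the ranges overlapped. In EpiLC against mESC-2i the ranges were 0.0202 to 0.112 and -0.114 to 0.0111, without overlap. In EpiLC against mESC-ser they were 0.016 to 0.0332 and -0.0311 to 0.0161, and overlapped only at their ends. In every comparison the range of same-numbered libraries lay higher at both ends, and the cause was not tested. The labels do not say whether the numbers pair libraries. The fold changes, SE and p-values given are from fits without pairing, and the replicate block was only an alternative. No pair of replicates agreed within sampling noise (chi-square per degree of freedom 1.61 to 28.3). Promoter windows came from RefSeq on GRCm38.p6. Some family shares and genes ranked by likeness are not reported here.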

Additional observations from a re-analysis of the deposited data

How the results depend on the processing

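Of the values of the 9 genes under the alternatives, 432 kept direction and side of the threshold and 10 changed sign. With the sign kept, 13 lost the call and 4 gained it. Those that changed sign include Sox11 in EpiLC against mESC-ser with the offsets, with or without the block, which lost its call as well. The 8 calls in EpiLC against mESC-2i held under every alternative run, and those in mESC-ser against mESC-2i did so except at an absolute log2 fold change over 1, which left 5 of the 9 genes and 4935 of all genes called. In EpiLC against mESC-ser between 4 and 7 of the 9 were called. There, with length and GC offsets, Zic2 was at -0.05, Zic5 at 0.18 and Sox11 at 0.34 (with the replicate block as well -0.04, 0.18 and 0.34). Sox4 was then at -0.36, short of the fold threshold, and Foxd3 at -0.97, past it. Sox11 was at -0.49 by RLE scaling and by DESeq2. Leaving out 1 library at a time, Zic5 ranged from -0.20 to 0.08 there, the latter without EpiLC replicate 2. In EpiLC against mESC-2i Zic2 was at -0.17 by total counts and at -0.05 with the offsets, with or without the block. Total-count scaling moved the median of all genes to -0.45 in EpiLC against mESC-2i and to -0.41 in EpiLC against mESC-ser. The cause of these shifts was not tested. The replicate block gave 8953, 10759 and 11207 calls over all genes and changed no call of the 9. Depth limited the low genes most, such as Pou3f1 in mESC-2i at 18 to 28 counts.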
